A study of Homo sapiens with 12 samples.

Results

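PEG10 carried 126 of the 102250 PAR-CLIP clusters called in 12 HepG2 libraries (0.123%). A cluster was assigned to the gene when its midpoint lay on the plus strand within chr7:94656325-94669695 (hg38), the bounds of PEG10 (ENSG00000242265) in GENCODE release 44, and no cluster was found on the opposite strand there. Clusters that overlapped by at least 1 nt were merged, which gave 27 sites on PEG10 of 45174 merged sites in all. PEG10 had been selected on the number of its clusters that recurred between libraries of a protein. How many clusters it had, and how often they recurred, are therefore given as a description with no test.

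PAR-CLIP maps contacts between a protein and RNA by feeding cells 4-thiouridine, crosslinking with ultraviolet light and sequencing the RNA fragments that come down with the protein. All 12 libraries were made from wild-type HepG2, an established human liver cancer line, and all were treated alike with 4-thiouridine, ultraviolet light and RNase T1. IGF2BP1 and IGF2BP2 had 2 libraries each. The 4 libraries of IGF2BP3 formed 2 pairs, and the titles of 1 pair carried the word bio2. METTL1 and WDR4 also had 2 libraries each. The IGF2BP proteins were examined in the study as readers of internal N7-methylguanosine (m7G) in mRNA, and METTL1 is the catalytic subunit of an m7G methyltransferase, with WDR4 as its partner. The libraries came from 1 cell line with no input or mock library among them. Per the study's methods, plates of cells were seeded for every replicate, but neither these nor the labels say whether replicates were cultured and processed independently or what bio2 stands for, so p-values measure the spread between libraries, which may in part be technical.

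PEG10 is an imprinted gene, expressed from the paternal allele, that descends from the gag and pol genes of a retrotransposon. Its mRNA has a short reading frame for a Gag-like protein and a longer frame that continues into the Pol-like part after a programmed −1 frameshift of the ribosome, and a long 3' UTR follows. PEG10 is needed for placental development and is known for high expression in liver cancer. IGF2BP proteins bind mRNA through KH domains, mostly in 3' UTRs, and are known to affect the stability and translation of the mRNAs they bind.

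The files held intervals only. The libraries contained 4581 to 15701 clusters each, and the reads behind a cluster were unknown. Clusters from the bio2 libraries were narrower (median 34 and 35 nt) than those of the other 10 libraries (38 to 43 nt), and results that rest on the bio2 libraries are given with and without them. Of 12 liver transcripts checked as markers of the cell type, 11 had an exonic cluster and 3 (APOB, FGB and SERPINA1) had one in every library, while TTR had none.

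Almost all sites lay in 1 exon. The last exon of PEG10 (chr7:94663334-94669695, 6362 nt) holds most of the coding sequence and the whole 3' UTR. The long frame ends in this exon with a stop codon at chr7:94665680-94665682. The 3' UTR, counted here from the first base of the stop codon, spans 4016 nt up to the most distal annotated end. Of the 27 sites, 26 lay wholly in exons, 5 of them in coding sequence and 21 in the 3' UTR, and 1 lay in an intron. The same division over clusters was 19 coding, 106 in the 3' UTR and 1 intronic.

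The sequences below are those of the sites on which the results turn. They were the 8 sites found in the most libraries and the site over the stop codon of the long frame (site 6), with the frameshift heptamer, the stop codon and the terminal polyadenylation hexamers for orientation. Each is read from hg38 on the plus strand, 5′ to 3′ in DNA letters, and is the stretch covered in the most libraries, cut to at most 30 nt. Capitals in the sites mark CATA, CATC or CATT, which in RNA is the CAUH element known for IGF2BP proteins, and in the other 3 lines the named feature.
Site 2, chr7:94663480-94663509: ctcctccccctccccccaacaacaacaaca
Site 6, chr7:94665638-94665667: ccaccaccaccaccgccgccgcctcCATCt
Site 11, chr7:94666003-94666030: ccaaaacctcCATCacCATCtaaattat
Site 16, chr7:94666245-94666267: cacccttagaaacttcaccgtct
Site 19, chr7:94666621-94666648: actccaaaatccCATAcccaactcttaa
Site 20, chr7:94667191-94667214: ttttatctaacctctctttttctg
Site 23, chr7:94667717-94667740: CATCATAtataatttcaattctat
Site 26, chr7:94669312-94669337: atttcaaataaactcggagggaactg
Site 27, chr7:94669605-94669634: tattctcttcactctatatttctctctatt
Frameshift heptamer, chr7:94664499-94664528: tcttcgccggcGGGAAACtccccggccccg
Stop codon of the long frame, chr7:94665666-94665695: cttacagtaccctgTAAatacctgtcatgt
Polyadenylation hexamers, chr7:94669657-94669686: cAATAAAaattcAATAAAgatttagtggtt

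PEG10 had clusters in the libraries of all 5 proteins, with the most sites in IGF2BP1 and in the bio2 libraries of IGF2BP3. The IGF2BP1 libraries had 19 and 21 PEG10 clusters, at 17 and 20 sites. The IGF2BP2 libraries had 6 and 8 clusters. For IGF2BP3 there were 7 and 8 clusters in the first pair and 16 and 20 in the bio2 pair, so the 2 pairs of IGF2BP3 libraries did not overlap. METTL1 had 4 and 7 clusters and WDR4 had 5 in each library.

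As a share of the library, PEG10 clusters were 0.131% and 0.134% for IGF2BP1, 0.131% and 0.107% for IGF2BP2, and 0.108% and 0.117% for the first IGF2BP3 libraries. The 6 shares lay close together although these libraries differed in size. The bio2 libraries stood above them at 0.248% (95% Wilson confidence interval 0.153% to 0.402%) and 0.333% (0.216% to 0.514%). METTL1 stood below at 0.0605% and 0.0809%, as did WDR4 at 0.0512% and 0.0543%, and no METTL1 or WDR4 library reached the lowest IGF2BP library. The upper limits of the 6 other IGF2BP libraries were 0.204% to 0.285%, so their intervals overlapped that of the first bio2 library. Those of METTL1 and WDR4 reached up to 0.120% to 0.167% and overlapped the intervals of the same 6 libraries. The intervals cover counting error only, and binding and the amount of PEG10 RNA cannot be told apart in a cluster count. Without the bio2 libraries, 90 clusters and 21 sites were left.

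**Figure D1:**
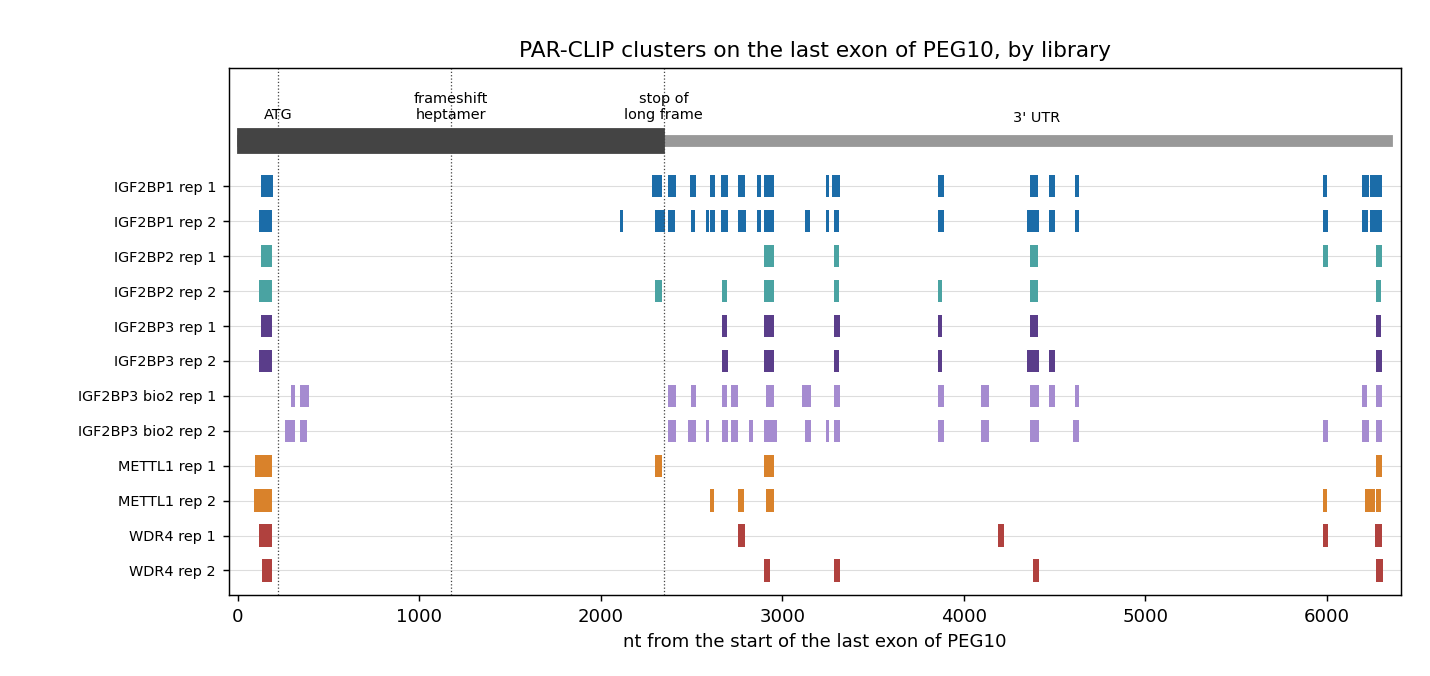
Clusters of the 12 libraries along the last exon of PEG10, with the distance in nt from the exon's start on the horizontal axis and 1 row per library. The dark bar is coding sequence and the grey bar is 3' UTR. Dotted lines mark the ATG of the short frame, the frameshift heptamer and the stop codon of the long frame. The stretch of 1712 nt before site 5 holds no cluster in any library, and every library has a cluster near the right end.

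Most PEG10 sites recurred. A single library held 4 of the 27 sites, where the background over all merged sites was 60.6%. At least 9 libraries held 5 of the 27 (background 2.75%), and all 5 proteins held 4 of the 27, which were sites 2, 16, 26 and 27 (background 3.08%). The site found in all 12 libraries was site 27 (background 0.591%). Since PEG10 was chosen for recurrent clusters, nothing is read from these or the following counts.

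Within a protein, replicates shared most of the IGF2BP1 and IGF2BP3 sites and fewer of the METTL1 and WDR4 sites. Both IGF2BP1 libraries held 17 of the 20 PEG10 sites seen with IGF2BP1 (background 54.7%), and at least 2 IGF2BP3 libraries held 16 of 21 (background 58.6%). Both IGF2BP2 libraries held 5 of 9 (background 35.7%). For METTL1 the number was 3 of 7 (background 13.7%), at sites 2, 16 and 27, and for WDR4 it was 2 of 8 (background 15.2%), at sites 2 and 27. Those 2 sites, at the opposite ends of the last exon, were the ones reproducible for both METTL1 and WDR4 (2 of 27, background 2.17%).

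On PEG10 the shorter site lists mostly fell within that of IGF2BP1. IGF2BP1 had the largest libraries (14502 and 15701 clusters) and 20 of the 27 sites. The matching shares over all merged sites are not given, so nothing is read from this nesting. All 9 sites of IGF2BP2, all 8 of the first IGF2BP3 libraries and all 7 of METTL1 were among the 20 sites of IGF2BP1, as were 7 of the 8 sites of WDR4. Of the 10 sites with a METTL1 or WDR4 cluster, 9 also had an IGF2BP cluster. The bio2 libraries were less contained, with 14 of their 20 sites shared with IGF2BP1 (70.0% of each list). The 8 sites of the first IGF2BP3 libraries and the 20 bio2 sites shared 7, which is 87.5% of the former and 35% of the latter. Only the bio2 libraries held sites 1, 3, 4, 12, 14 and 21, of which 4 were present in both of them. IGF2BP1 and bio2 libraries alone held sites 7, 8, 9, 17, 18 and 25.

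**Figure D2:**
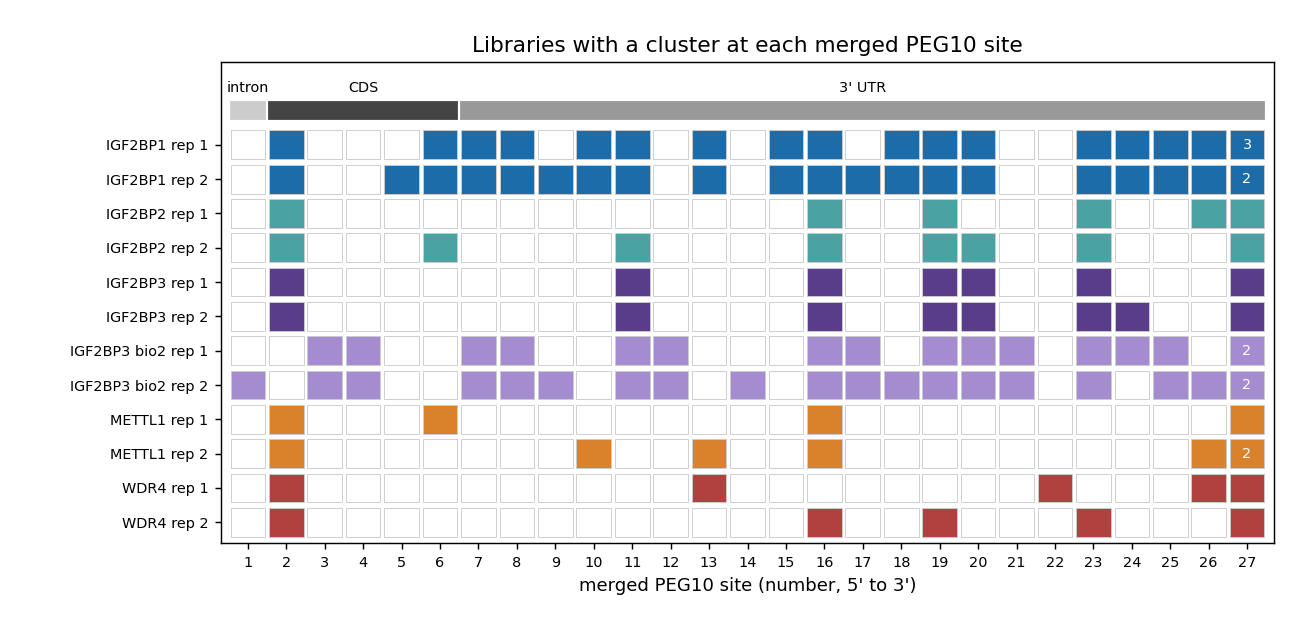
Presence of a cluster at each of the 27 merged PEG10 sites (columns, numbered 5' to 3') in each of the 12 libraries (rows). Filled squares mark at least 1 cluster and a number gives the clusters where there were several. Column 27 is filled in every row, column 16 in all rows but 1, and column 2 in all rows but the 2 bio2 rows.

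The coding sequence held few sites, and they fell at its 2 ends. Site 2 (chr7:94663423-94663526, 104 nt) was found in 10 libraries, 2 of each protein, and in neither bio2 library. It ended 30 nt before the ATG of the short frame at position 94663557, in sequence that is coding in annotated forms that start further upstream, either in exon 1 or at a CTG codon at position 94663455. Its clusters were 55 to 100 nt wide and 5 of the 10 ended at position 94663522. The 53 nt covered in all 10 libraries are rich in C and A, as the stretch printed above shows. The central 20 nt of the cluster occurred more than once in the genome for 6 of its 10 clusters, with up to 53 copies, and whether this affected the calls was not tested.

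The bio2 libraries had a different pair of sites at the 5' end. Site 3 (chr7:94663593-94663646, 54 nt) began 36 nt after the ATG and site 4 (chr7:94663675-94663725, 51 nt) followed it by 28 nt, and both were present in both bio2 libraries and in no other library. Each library thus had either site 2 or sites 3 and 4.

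The frameshift region was free of clusters. The heptamer GGGAAAC, on which the ribosome slips, lies at chr7:94664510-94664516 in the coding sequence, as printed above. The nearest sites were site 4, 785 nt upstream, and site 5, 922 nt downstream. The gap of 1712 nt between these sites was the longest on the exon. GGGAAAC occurs on the sense strand of 21.8% of 20046 canonical coding transcripts. The files give no read coverage, so an absence of clusters does not show how many reads covered the region.

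At the 3' end of the long frame, site 5 (chr7:94665438-94665458, 21 nt) was called in IGF2BP1 replicate 2 alone. Site 6 (chr7:94665614-94665688, 75 nt) spanned the stop codon and was the only site to do so. The merged site was found in both IGF2BP1 libraries, IGF2BP2 replicate 2 and METTL1 replicate 1. Only the cluster of IGF2BP1 replicate 2 reached the stop codon. Those of the other libraries ended upstream of it, at position 94665671 or 94665672. The printed stretch of site 6 is mostly a run of CCA and CCG triplets. At this site, 2 of the 4 clusters had a centre with 2 copies in the genome.

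The 3' UTR held 21 sites, which were 20 to 117 nt wide, and 13 of all sites began within the first 1000 nt after the stop codon. The median gap between neighbouring 3' UTR sites was 54.5 nt. The median width of all 27 PEG10 sites was 40 nt, against 39 nt over all merged sites, and 6 of the 27 were no wider than 30 nt. Long stretches without a cluster lay between sites 19 and 20 (541 nt) and between sites 25 and 26 (1341 nt).

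The first group of 3' UTR sites, from site 7 to site 19, mixed sites of 1 to 4 libraries with 3 that recurred more widely. Site 7 began 24 nt after the first base of the stop codon and, like site 8, was found in both IGF2BP1 and both bio2 libraries. Site 11 (chr7:94665994-94666032, 39 nt) was found in 7 libraries, all of IGF2BP proteins, including all 4 of IGF2BP3. Its printed stretch has 2 copies of CATC.

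Site 16 (chr7:94666233-94666303, 71 nt) was the second most recurrent site, with 11 libraries, and was missing from WDR4 replicate 1. Its edges were shared as well: 9 libraries had the same first base and 9 the same last base. Site 19 (chr7:94666609-94666649, 41 nt) was found in 9 libraries, which were all 8 IGF2BP libraries and WDR4 replicate 2.

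Less common combinations lay among these. Sites 10 and 13 were found with IGF2BP1 and with METTL1 or WDR4 but in no IGF2BP2 or IGF2BP3 library. Site 10 (chr7:94665937-94665962, 26 nt) had both IGF2BP1 libraries and METTL1 replicate 2, and all 3 of its clusters had a centre with 2 copies. Site 13 (chr7:94666092-94666131, 40 nt) had both IGF2BP1 libraries, METTL1 replicate 2 and WDR4 replicate 1, and all 4 clusters began at the same base.

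The middle of the 3' UTR held sites 20 to 25. Site 20 (chr7:94667191-94667226, 36 nt) was found in the same 7 libraries as site 11 and had the highest T content of the 27 sites (61.1%), as its printed run of pyrimidines shows. All 7 clusters began at the same base. Site 23 (chr7:94667683-94667746, 64 nt) was found in the same 9 libraries as site 19, and the stretch common to all 9 opens with overlapping CATC and CATA. Site 22 (chr7:94667524-94667554, 31 nt) was the only one with no IGF2BP cluster and was called in WDR4 replicate 1 alone. Site 24 (chr7:94667802-94667838, 37 nt) was found in 4 IGF2BP libraries, and every cluster there had a centre with 3 copies in the genome.

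The 2 sites near the transcript end were shared by all 5 proteins. Site 26 (chr7:94669312-94669342, 31 nt) was found in both IGF2BP1 libraries and in 1 library each of IGF2BP2, IGF2BP3, METTL1 and WDR4, and all 6 clusters began at the same base. It has no CATA, CATC or CATT in the window searched.

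Site 27 (chr7:94669529-94669645, 117 nt) was the only PEG10 site of all 12 libraries and held 18 clusters. The 30 nt at chr7:94669605-94669634 were covered in every library, and 9 clusters began at its first base. Clusters upstream of that core began at position 94669529 in both IGF2BP1 and both bio2 libraries, and 5 libraries had more than 1 cluster at the site. The site ended 50 nt before the annotated end of the transcript. The 2 AATAAA hexamers printed above, the signal for cleavage and polyadenylation, lay 13 and 24 nt beyond it, and no site overlapped these 2. The same hexamer also occurs further upstream, within the printed stretch of site 26, which was covered in 6 libraries. Whether sites avoid the hexamer was not tested. AATAAA occurs in the last 100 nt of 65.7% of canonical coding transcripts.

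The remaining sites were found in fewer libraries. Both IGF2BP1 and both bio2 libraries held site 7 (chr7:94665704-94665746, 43 nt), site 8 (chr7:94665814-94665857, 44 nt) and site 25 (chr7:94667935-94667970, 36 nt). Site 17 (chr7:94666445-94666489, 45 nt) and site 18 (chr7:94666573-94666593, 21 nt) were found in 3 of those 4 libraries, and site 9 (chr7:94665912-94665932, 21 nt) in 1 library of each kind. Both bio2 libraries and no other held site 12 (chr7:94666049-94666088, 40 nt) and site 21 (chr7:94667429-94667470, 42 nt), each with the same first and last base in both. Site 15 (chr7:94666197-94666216, 20 nt) was found in the 2 IGF2BP1 libraries alone. The second bio2 library alone held site 14 (chr7:94666151-94666171, 21 nt) and the intronic site 1 (chr7:94658767-94658805, 39 nt), which lay between exon 1 and the last exon.

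**Figure D3:**
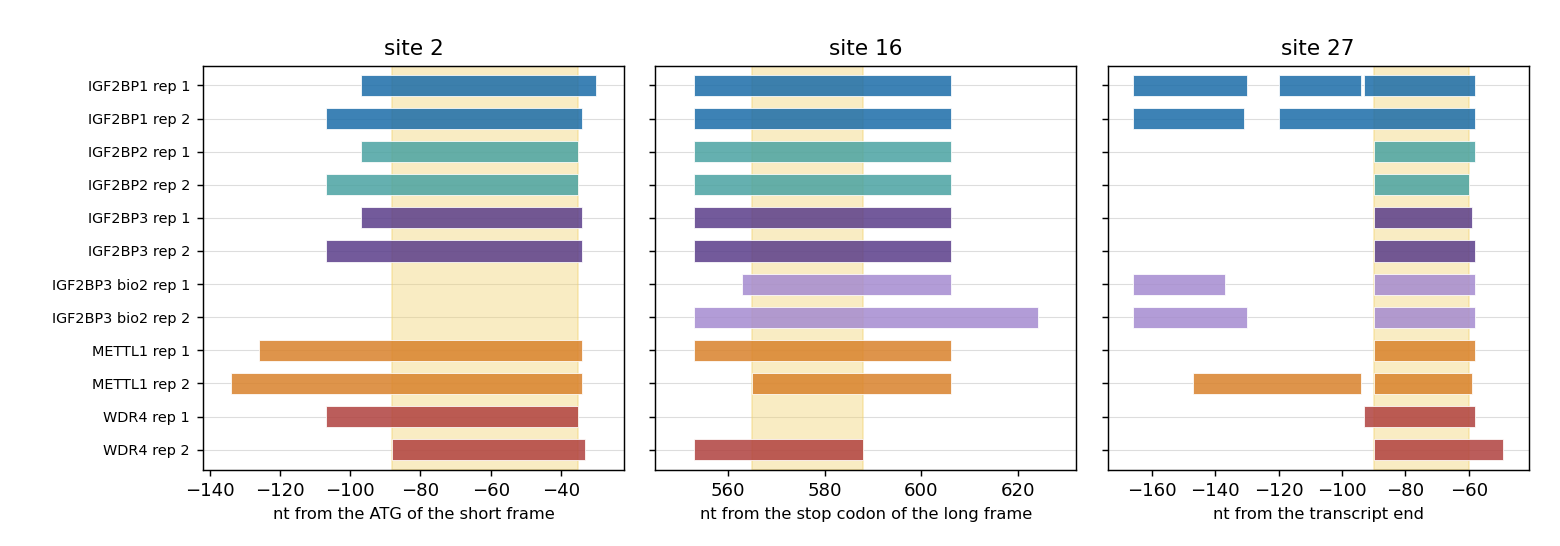
Clusters at sites 2, 16 and 27 in the 12 libraries (rows), with the distance in nt from the ATG of the short frame, from the stop codon of the long frame and from the transcript end on the horizontal axes. The shaded band is the stretch covered in the most libraries. The band of site 27 is covered in all 12 rows, that of site 16 in 11 and that of site 2 in 10.

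Sites 2, 16 and 27 took 12 of the 21 METTL1 and WDR4 clusters on PEG10 (57.1%) and 27 of the 105 IGF2BP clusters (25.7%). The share was 75.0% and 57.1% in the METTL1 libraries and 40% and 60% in the WDR4 libraries. IGF2BP1, at 26.3% and 19%, and the bio2 pair, at 18.8% and 15.0%, had the lowest shares and the most clusters. The other IGF2BP libraries had 37.5% to 50.0%, so the 2 groups overlapped. As these sites were picked for their number of libraries, this difference has no test.

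Where in the mRNA the clusters lay was compared between the 8 IGF2BP libraries and the 4 METTL1 and WDR4 libraries. Within the 3' UTR, IGF2BP clusters lay nearer the stop codon. Position was scaled so that the stop codon was 0 and the most distal end 1. The median over a library's 3' UTR clusters was 0.236 and 0.211 for IGF2BP1, and 0.508 and 0.308 for IGF2BP2. The first IGF2BP3 libraries had 0.308 and 0.379, and the bio2 pair had 0.309 and 0.225. The METTL1 libraries had 0.563 and 0.527 and the WDR4 libraries 0.685 and 0.374. The groups overlapped in part, since WDR4 replicate 2 lay below IGF2BP2 replicate 1 and IGF2BP3 replicate 2.

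The mean was 0.311 ± 0.0974 (SD, n = 8) for IGF2BP and 0.537 ± 0.128 (SD, n = 4) for METTL1 and WDR4. The difference of −0.227 exceeded the spread between libraries (exact permutation test, two-sided, over 495 splits, p = 0.00606, adjusted p = 0.0303 over 5 tests). Without the bio2 libraries the difference was −0.212 (exact permutation p = 0.0286). With the protein as unit it was −0.225 and did not pass (exact permutation p = 0.200, where 0.100 is the smallest possible). The METTL1 and WDR4 medians rested on 2 to 6 clusters each, among which site 27 was always present. When each merged site was counted once per library, the difference was −0.145 and did not pass (exact permutation p = 0.168).

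**Figure D4:**
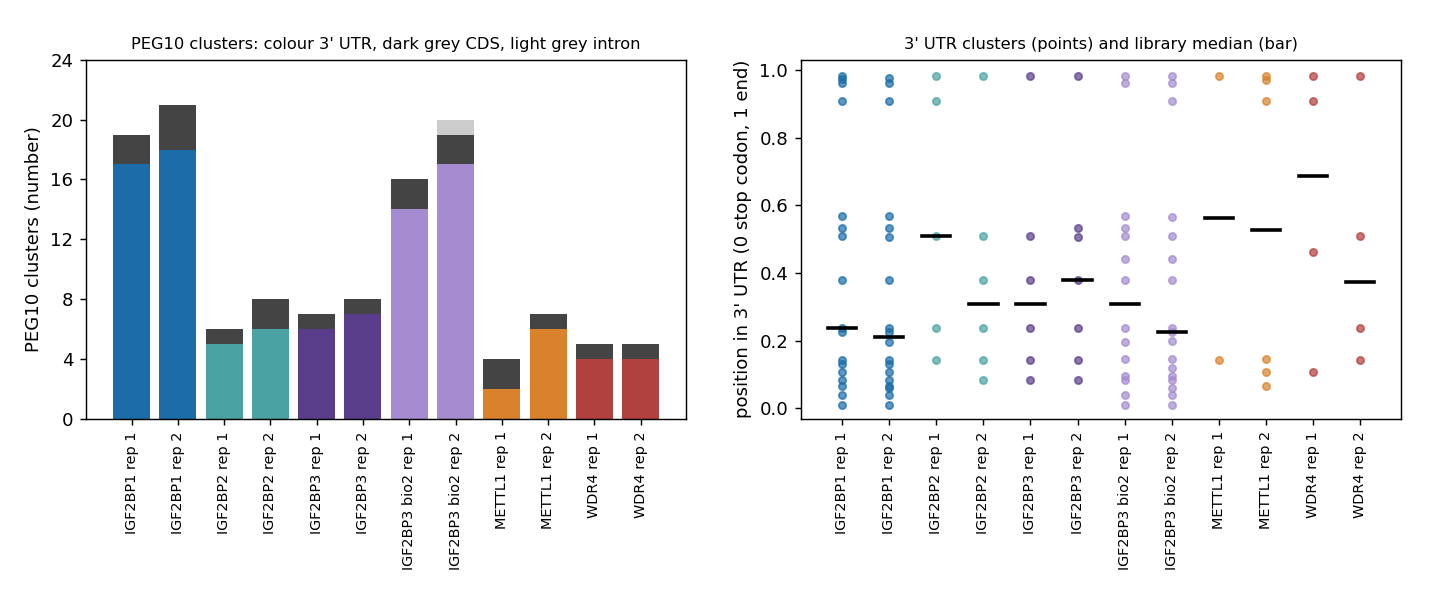
Left, number of PEG10 clusters per library, split into 3' UTR (coloured), coding sequence (dark grey) and intron (light grey). Right, position of each 3' UTR cluster between the stop codon (0) and the transcript end (1), with the library's median as a black bar. The medians of METTL1 and WDR4 lie between 0.374 and 0.685 and those of the IGF2BP libraries between 0.211 and 0.508.

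The division between coding sequence and 3' UTR differed less clearly. The 3' UTR held 89.5% and 85.7% of the IGF2BP1 clusters, 83.3% and 75.0% of the IGF2BP2 clusters, 85.7% and 87.5% of the first IGF2BP3 clusters and 87.5% and 89.5% of the bio2 clusters. It held 50.0% and 85.7% of the METTL1 clusters and 80.0% of the clusters in both WDR4 libraries. METTL1 replicate 1, with 4 clusters, stood below every other library. The mean was 85.5% ± 4.70 (SD, n = 8) against 73.9% ± 16.2 (SD, n = 4), and the difference of 11.5 points did not pass after adjustment (exact permutation test, two-sided, p = 0.0485, adjusted p = 0.0606). Measured as a share of covered bases in place of clusters it was 18.8 points (exact permutation p = 0.00606). It was 3.56 points without METTL1 replicate 1 (exact permutation p = 0.267) and 10.5 points without the bio2 libraries (p = 0.114, same exact test). Over clusters with a single-copy centre, which leaves out most clusters of site 2, it was 1.24 points (exact permutation p = 0.859).

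In 10 of the 12 libraries the 3' UTR share on PEG10 was above that of the library's clusters over all genes in coding sequence or 3' UTR. The gap was 26.2 and 27 points in the bio2 libraries, where 61.3% and 62.5% of clusters over all genes lay in the 3' UTR. It was 10.4 and 7.76 points for IGF2BP1, 0.543 and −6.68 points for IGF2BP2, and 11.6 and 12.4 points for the first IGF2BP3 libraries. METTL1 had −20.7 and 16 points and WDR4 had 3.94 and 0.00988 points, so the METTL1 replicates departed from their libraries in opposite directions. These gaps set 1 gene's values beside the library's and were not tested.

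PEG10 clusters were narrower than the library's own median in 9 of the 10 libraries outside the bio2 pair. The median width of PEG10 clusters minus that of all clusters of the library was −10 to −5 nt in the 6 IGF2BP libraries outside the bio2 pair, and 2.5 and 1 nt in that pair. It was 5.5 and −8 nt in the METTL1 libraries and −4 and −5 nt in the WDR4 libraries. The means were −4.81 ± 4.33 nt (SD, n = 8) and −2.88 ± 5.84 nt (SD, n = 4), and the difference of −1.94 nt lay within the spread between libraries (exact permutation test, two-sided, p = 0.535, adjusted p = 0.535). Without the bio2 libraries the difference was −4.125 nt and did not pass either (exact permutation p = 0.0952). The sign of the difference turned without METTL1 replicate 1 (0.854 nt, exact permutation p = 0.830).

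The CAUH element was found at 16 of the 27 sites (59.3%), where the background over all merged sites was 50.6%. Windows were widened by 10 nt on both sides and read on the sense strand. Around the 21 sites of the 3' UTR, windows of 60 nt held the element in 61.9% of cases, and 54.2% of the 60-nt windows of the same 3' UTR that were free of clusters also held it. These shares are near each other, and the cluster-free windows overlap one another. The 3' UTR sites had more C (23.4% of bases against 16.5% in the cluster-free windows) and slightly more T (32.9% against 29.9%). The longer bipartite element reported for IGF2BP3 (GGCA, a gap of 9 to 25 nt and CA, or CGGC, a gap of 15 to 25 nt and CA) was found at sites 8 and 17 (2 of 27, background 13.6%). Both of these sites had clusters in both bio2 libraries and in IGF2BP1, and in neither METTL1 nor WDR4. They had no cluster in IGF2BP2 or in the first IGF2BP3 libraries. Clusters of IGF2BP proteins alone were found at 17 of the 27 sites, so nothing is read from the lack of METTL1 and WDR4.

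Between libraries, 52.6% and 52.4% of the IGF2BP1 clusters on PEG10 held CAUH, as did 50.0% and 62.5% of the IGF2BP2 clusters. The shares were 57.1% and 50.0% in the first IGF2BP3 libraries and 62.5% and 60% in the bio2 libraries. METTL1 had 50.0% and 28.6% and WDR4 20% and 60%, so the groups overlapped. In 9 of the 12 libraries the share on PEG10 was below that over all clusters of the library, which was 60.5% and 62.5% for IGF2BP1, 51.7% and 49.7% for IGF2BP2, 71.4% to 73.8% for IGF2BP3 and 37.0% to 42.9% for METTL1 and WDR4. The mean was 55.9% ± 5.32 (SD, n = 8) against 39.6% ± 18.5 (SD, n = 4), and the difference of 16.3 points did not pass after adjustment (exact permutation test, two-sided, p = 0.0424, adjusted p = 0.0606). Over all clusters of the libraries the means were 64.2% and 40.0%, a gap of 24.2 points. With windows widened by 20 nt in place of 10 nt its sign turned (−4.40 points, exact permutation p = 0.572).

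How far libraries covered the same bases of PEG10 was measured by the Jaccard index, the bases covered in both libraries as a percentage of those covered in either. Replicates of IGF2BP1 shared 77.7%, those of IGF2BP2 61.7%, the first IGF2BP3 libraries 79.8% and the bio2 libraries 62.9%. METTL1 replicates shared 45.8% and WDR4 replicates 28.0%. The closest pair of proteins was IGF2BP2 with the first IGF2BP3 libraries, with a mean of 70.9% over 4 pairs (58.1% to 82.6%). The first IGF2BP3 libraries had a lower index with the bio2 pair of the same protein (mean 29.4%) than with IGF2BP2. The index is capped where libraries cover unlike numbers of bases. The first IGF2BP3 libraries covered 274 and 341 nt, the bio2 pair 572 and 741 nt and IGF2BP2 247 and 314 nt. IGF2BP3 replicate 1 shared 201 and 211 nt with the bio2 pair and 215 and 266 nt with IGF2BP2. For IGF2BP3 replicate 2 these were 239 and 214 nt, and 216 and 276 nt. The lowest means were those of the bio2 libraries with METTL1 (10.7%) and with WDR4 (11.2%).

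Libraries of the same protein shared 47.3% on average over 10 pairs and those of different proteins 34.9% over 56 pairs, a difference of 12.4 points. It was 24.7 points with the bio2 libraries taken as a group of their own, 18.4 points without them, and 8.95 and 8.74 points without the first or the second IGF2BP1 library. Overlap within a protein is close to what PEG10 was selected on, so these values carry no test.

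**Figure D5:**
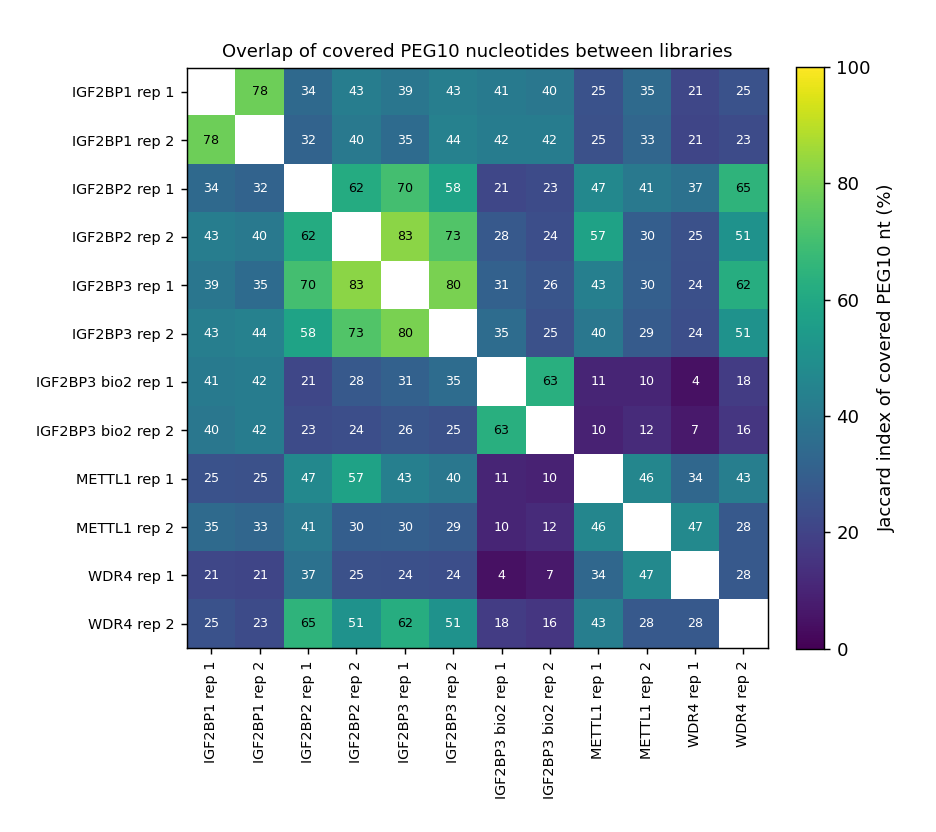
Jaccard index of covered PEG10 bases, in percent, for each pair of the 12 libraries (rows and columns). The block of the IGF2BP2 and first IGF2BP3 libraries is bright, at 58.1% to 82.6% between those proteins, and the bio2 libraries are dark against METTL1 and WDR4.

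Among 6212 protein-coding genes with an exonic cluster, PEG10 was ranked 4 by the number of exonic clusters (125) and 9 by the number of merged exonic sites (26). Reproducible sites were counted for this ranking after merging the clusters of 1 protein at a time, which splits some of the 27 sites. PEG10 was then ranked 3 for IGF2BP1 (18 sites) and for IGF2BP3 (17), 27 for IGF2BP2 (5), 17 for METTL1 (3) and 42 for WDR4 (2). In that order, these ranks were among 3208, 2835, 1183, 580 and 664 genes. Tied genes take the top rank of the tie: 10 other genes equalled PEG10 for IGF2BP2, 21 for METTL1 and 95 for WDR4. Per length, PEG10 had 3.89 sites per kb of exon and ranked 8 of the 225 genes with at least 10 sites. IGF2, the imprinted growth factor gene, had 5.04 sites per kb and APOB, the apolipoprotein of liver lipoprotein particles, 5.19. NFAT5 (1.23) and PLBD2 (2.85) were lower. Of the sites of IGF2, 11 of 36 were in all 12 libraries, against 1 of 26 on PEG10.

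Relatives and neighbours of PEG10 rarely had clusters. RNA levels were not used, so a gene without a cluster may be unbound or not expressed. Of 24 other genes derived from retrotransposon gag sequences, 1 had a cluster: PNMA1, a paraneoplastic antigen gene, with 4 clusters in 4 IGF2BP libraries. The percentage of all coding genes with an exonic cluster was 31.0%. Of 12 genes near PEG10 on chromosome 7, CASD1 had 1 cluster and PPP1R9A 6, and SGCE, which shares the imprinted promoter region with PEG10, had none. Among 20 other imprinted genes, 10 had a cluster, and IGF2 (382 clusters) and PEG3 (64 clusters) had clusters in every library. UBE3A, the ubiquitin ligase known to lower PEG10 protein, had 8 clusters in 6 libraries, and the deubiquitinase USP9X had 5 clusters in 5 libraries.

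The genes whose share of exonic clusters varied most like those of PEG10 across the 12 libraries were CANX (Spearman's rho 0.967), AK4 (0.967), RAB10 (0.960), BPNT2 (0.958) and PUS7L (0.954), of 591 genes with at least 20 exonic clusters. All points come from the same 12 libraries and share their size and protein, so these values describe likeness and carry no test. In all 5 genes, as on PEG10, the IGF2BP1 and bio2 libraries had most of the clusters. The METTL1 and WDR4 libraries had a mean of 0 to 1 cluster on these genes and of 5.25 on PEG10. These genes had 20 to 33 exonic clusters in all, against 125 on PEG10, so the means rest on unlike totals. BPNT2, with 24 clusters in all, had a mean of 1. Nothing particular to PEG10 is read from the means.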

How the data were processed

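PAR-CLIP for IGF2BP1, IGF2BP2, IGF2BP3, METTL1 and WDR4 was compared over 12 HepG2 libraries. The authors removed low-quality reads, adapters and duplicate reads with the FASTX toolkit, aligned with Bowtie, which allowed mismatches and a limited number of repeated positions, and called clusters with PARalyzer. Tool versions and PARalyzer settings are not given in the sources used here, and the build per the labels is hg38. The deposited files hold another kind of value than counts: each line is the interval of 1 cluster in 1 library, with no read number or score, so depth per cluster was unknown.

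Starts were read as counted from 1 because the base before a cluster, where RNase T1 cuts, was G in 74.5% to 94.7% of a library's clusters under that reading. On PEG10 it was G for 123 of 126 clusters. Clusters were classed by midpoint against GENCODE release 44, coding sequence before 3' UTR. Groups (8 IGF2BP against 4 METTL1 and WDR4 libraries) were compared by exact permutation tests over libraries with a threshold of 0.05 and Benjamini-Hochberg adjustment over 5 tests. The last of these, of overlap between libraries of a protein, is not given as a test, since PEG10 was selected on a closely related value. The smallest two-sided p was 0.00202. The code passed 6 checks on simulated data. Python 3.11.15, pandas 2.3.3, scipy 1.17.1 and pysam 0.24.0 were used.

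Sites named were up to 8 found in the most libraries, those reproducible (at least 2 libraries) for both METTL1 and WDR4, and those nearest the GGGAAAC heptamer and the stop codon of the long frame. Other sites were described to account for all 27. PEG10, these rules and the gene lists were chosen with earlier results of these data known. Alternatives left out each library or the bio2 libraries, took the protein as unit, permuted within replicate number, and changed the cluster filter, the annotation, the summary and the motif window. RNA levels and m7G maps of the study were not used here.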

Additional observations from a re-analysis of the deposited data

Results flagged for a closer look

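The share of PEG10 clusters in the 3' UTR had a library far from the others in each group, by Dixon's criterion for a single distant value. METTL1 replicate 1 had 50.0%, where the nearest of the METTL1 and WDR4 libraries had 80.0%, a gap of 0.840 of the group's range (limit 0.829 for 4 libraries). That library had 4 PEG10 clusters, 2 of them in the 3' UTR. IGF2BP2 replicate 2 had 75.0%, where the nearest of the 8 IGF2BP libraries had 83.3%, a gap of 0.576 of the range (limit 0.526). It had 8 PEG10 clusters. In all, 18 groups of values were examined in this way, and chance alone marks about 1 in 20.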

How the results depend on the processing

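Thresholds here apply to unadjusted p. Of 20 alternatives, 17 kept the difference in 3' UTR position past the threshold. It did not pass with the protein as unit (−0.225, exact p = 0.200, where 0.100 is the smallest possible), with only clusters as wide as their library's median or wider (−0.302, p = 0.0727, 3 METTL1 and WDR4 libraries) or with each merged site counted once (−0.145, p = 0.168, added after seeing the data). Leaving out 1 library gave −0.281 to −0.177.

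The 3' UTR share stayed past the threshold in 6 of 21 alternatives. It ranged from 3.56 to 15.5 points with 1 library left out, where most runs lost the threshold (exact permutation p = 0.0121 to 0.267). It also lost the threshold at 10.5 points without the bio2 libraries and at 10.8 with the protein as unit. With wide clusters (24.7 points) and single-copy clusters (1.24 points) it lost the threshold too. It passed at 8.70 points with 3' UTR taken before coding sequence, and at 18.8 points over covered bases (exact p = 0.00606 in each). Ending the coding sequence of the last exon where the short frame ends also gave 8.70 points (exact p = 0.00606, added after seeing the data). Both settings at 8.70 points left site 2, which lies upstream of the short frame's ATG, in coding sequence. CAUH stayed past the threshold in 8 of 22 alternatives. It ranged from 9.70 to 23 points with 1 library left out, where most runs lost the threshold (exact permutation p = 0.0182 to 0.158). It also lost the threshold at 14.5 without bio2, 15.7 by protein and 22.5 with wide clusters. It was 4.66 for the bipartite element and, reversed, −4.40 with windows widened by 20 nt, and passed in neither. Width ranged from −3.65 to 0.854 nt with 1 library left out and passed at −5.71 nt with the mean in place of the median (exact permutation p = 0.0182). Same-protein overlap, which carries no test, ranged from 8.74 to 15.3 points with 1 library left out and was 11.2 with wide clusters. Wide clusters alone gave 17 merged sites, and leaving out 1 library gave 25 to 28 sites and 105 to 122 clusters. The causes were not tested.

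Replicate numbers were not taken as pairs, as only 3 of 15 correlations between replicate differences passed 0.1. With the replicate number as a block, the unadjusted p was 0.00889 for position (−0.227), 0.0578 for the 3' UTR share (11.5 points), 0.560 for width (−1.94 nt) and 0.0533 for CAUH (16.3 points). The alternative with the canonical transcript alone gave no value, since the 3' UTR of that transcript holds no cluster. Files without read counts limit every comparison to the presence of a cluster.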
